A study of Homo sapiens with 6 samples.

Results

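The ligands of NKG2D are a small family of cell surface proteins that resemble MHC class I molecules, and their genes are described here in T24 bladder cancer cells with and without knockdown of UBC9. The 8 members were chosen by gene symbol: MICA and MICB of the MIC family, and ULBP1, ULBP2, ULBP3, RAET1E, RAET1G and RAET1L of the ULBP/RAET1 family. They are 8 of the 58174 genes with a deposited value. NKG2D is an activating receptor of NK cells and of cytotoxic T cells. Healthy cells show little of its ligands, and infection, DNA damage, heat shock or transformation can raise them, which marks the cell for killing. Each ligand is regulated on its own, and tumour cells can lose a ligand from the surface when proteases shed it.

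T24 is an established line grown from a human bladder cancer. The 3 shRNA-NC samples carried a scrambled control shRNA, and the 3 shRNA-UBC9 samples carried an shRNA against UBC9, the only E2 enzyme that conjugates SUMO to proteins. Both hairpins came from a lentiviral vector with puromycin selection, so the groups share infection and selection. A single UBC9 hairpin was used and the stable cells were not described as clones. Each sample was repeated, but nothing states that the repeats came from separate cultures, so the p-values measure only the spread between these samples, which may be technical.

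Poly(A) RNA was sequenced, and expression was given as RPKM, which divides the reads of a gene by its length and by the reads of the library. The steps between the RPKM values of low genes, together with gene lengths from GENCODE, gave totals of 28219032 to 36058872 reads per sample and whole read numbers for 100% of the 22896 genes above 0, within 0.003 reads. The gene length was searched until the reads came out whole, so 100% is a weak check for genes above 0 in few samples. The length found equalled the GENCODE length for 2657 genes. In the text, a read number is the smallest whole number that fits the RPKM values of a gene. The length implied by these numbers equalled the GENCODE length for MICB, RAET1G and RAET1L, and differed from it for the other 5 ligands, most for ULBP3 (988 against 3111 bases), RAET1E (3002 against 7171) and MICA (2386 against 3851). The read numbers of MICA, ULBP1, ULBP2, ULBP3 and RAET1E could therefore be multiples of those given, which leaves their RPKM values as they are. Differences between groups were tested with limma on log2(RPKM + 0.1) over 12428 genes, those that reached 0.5 RPKM in 3 or more samples, which included 5 of the 8 ligands. Fold changes are given on this log scale, where the added 0.1 makes the change of a low gene look smaller. A differentially expressed gene (DEG) had a |log2 fold change| over 1 and an adjusted p below 0.05.

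Of the cell markers, KRT7, KRT8, KRT18, KRT19 and VIM were high in all samples, while the urothelial genes UPK1A, UPK2 and UPK3A and the cadherin CDH1 were at or near 0, at most 0.125 RPKM. The 12 T24 and epithelial markers summed to 1376 to 1627 RPKM in shRNA-NC and 809.0 to 910.4 in shRNA-UBC9. Of the 8 tested, 6 fell and none rose, where 18.0% of all tested genes fell and 18.8% rose. KRT7 and PPARG, at log2 fold changes of -1.11 and -2.15, were DEGs, where 7.89% of tested genes were. KRT8, KRT18, KRT19 and GATA3 lay between -0.99 and -0.79, while VIM and EPCAM did not pass. The 11 NK and T cell markers summed to between 0.0717 and 0.604 RPKM in shRNA-NC and between 0.0083 and 0.891 in shRNA-UBC9, with GZMB and NCR1 at 0 in every sample. Of these markers, 10 were at 0 in shRNA-NC replicate 1 and in shRNA-UBC9 replicate 3, including the T cell receptor subunits CD3D and CD3E, which were above 0 in the other 4 samples. The 5 macrophage markers summed to 1.89 to 3.92 RPKM in shRNA-NC and 19.5 to 49.3 in shRNA-UBC9. Of these, CD68, a lysosomal protein, rose (log2 fold change 3.52, adjusted p = 0.000376 in limma) while the other macrophage genes CSF1R, AIF1 and ITGAM were at or below 0.156 RPKM and CD14 did not pass. The 7 endothelial and fibroblast markers summed to 3.58 to 3.95 RPKM and then 0.549 to 1.34, where CDH5 and PDGFRB fell and the other 5 were below the filter. The part of these markers in the ligand values was not tested, and the values of the 5 tested ligands without the samples with CD3D and CD3E at 0 are given with each ligand.

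The ligand genes lie in a pair of places on chromosome 6 (GRCh38). MICA (31399784 to 31415315, plus strand) and MICB (31494881 to 31511124, plus strand) sit 79.6 kb apart in the MHC region next to HLA-B. The other 6 form a cluster of 186 kb at 149883179 to 150069121, in the order RAET1E, RAET1G, ULBP2, ULBP1, RAET1L and ULBP3, with ULBP2 and ULBP1 on the plus strand and the rest on the minus strand. The coding sequences of MICA and MICB were 92.1% identical over 989 aligned bases. ULBP2 was closest to RAET1L, with 97.3% identity, and to RAET1G, with 94.6%, whereas its identity to ULBP3 was 75.7% and to ULBP1 78.1%.

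The members separated into well expressed, low and nearly silent genes. In shRNA-NC, mean RPKM was highest for MICB at 13.5 ± 1.64 (SD, n = 3) and MICA at 12.4 ± 1.25, whose ranges overlapped. ULBP2 followed at 8.65 ± 0.531, ULBP3 at 4.81 ± 0.468 and ULBP1 at 0.568 ± 0.264, each apart from its neighbours in the order. RAET1G, RAET1L and RAET1E were each below 0.14 RPKM in all 3 control samples. In shRNA-UBC9 the order began with MICB at 19.0 ± 1.60, MICA at 18.5 ± 1.39 and ULBP2 at 18.3 ± 1.61, and these 3 overlapped. ULBP3 stood apart below them at 2.73 ± 0.546, then ULBP1 at 0.541 ± 0.0375, and then RAET1L, RAET1G and RAET1E.

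**Figure D1:**
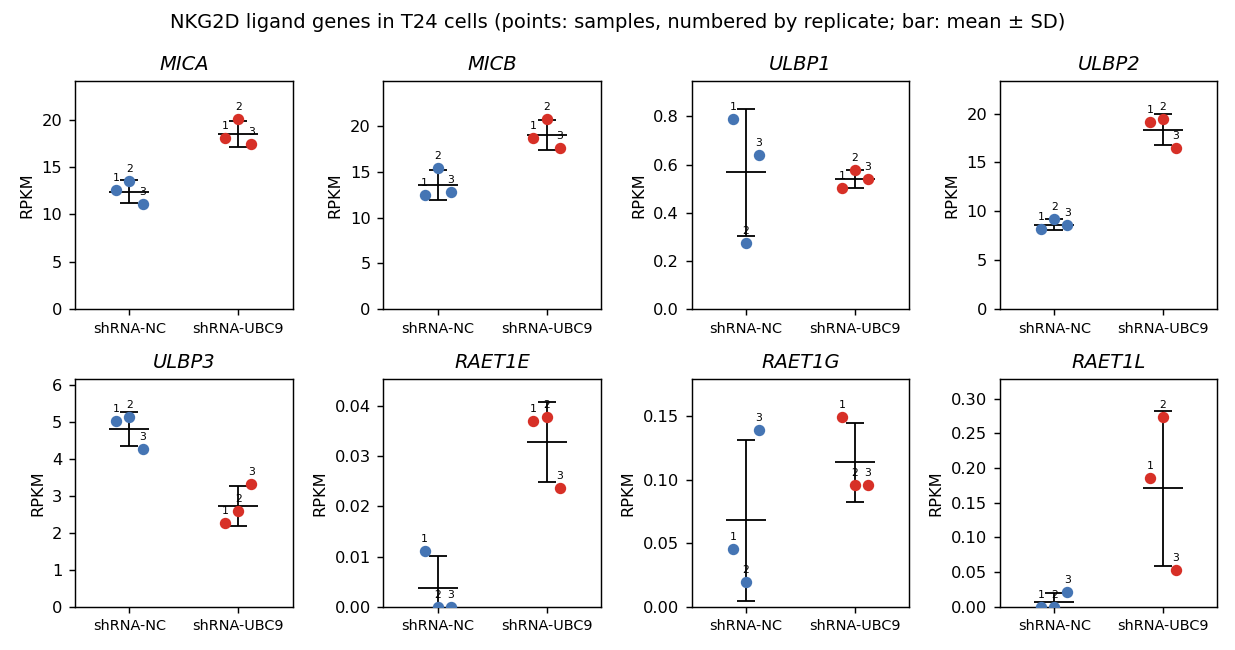
RPKM (vertical axis, a separate scale from 0 in each panel) of the 8 ligand genes in the 3 shRNA-NC samples (blue) and the 3 shRNA-UBC9 samples (red). Points are samples with their replicate number, and black bars are the mean ± SD. MICA, MICB and ULBP2 are higher and ULBP3 lower in shRNA-UBC9 with no overlap, ULBP1 and RAET1G overlap, and RAET1E and RAET1L stay below 0.3 RPKM.

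MICA, MICB and ULBP2 rose and ULBP3 fell at an adjusted p below 0.05, and ULBP1 did not pass. Thus 4 of 5 passed where 36.8% of all tested genes did. Of those, 3 of 5 were higher, against 18.8% of tested genes, and 1 of 5 was lower, against 18.0%. With the fold cutoff 1 ligand, ULBP2, remained as a DEG, where 7.89% of tested genes were DEGs and 5.20% were DEGs with higher values. The ranges of the groups did not overlap for 4 of the 5, and for 51.1% of all tested genes. The median log2 fold change over all tested genes was 0.005 and their median absolute log2 fold change 0.268. MICA, MICB, ULBP2 and ULBP3 were above the expression filter in all 6 samples.

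MICA and MICB are transmembrane proteins that, unlike classical MHC class I, present no peptide. MICA had RPKM values of 12.6, 13.6 and 11.1 in shRNA-NC and of 18.1, 20.1 and 17.4 in shRNA-UBC9, here and in what follows in the order of replicates 1 to 3. All knockdown samples were thus above all controls, and the lowest knockdown sample exceeded the highest control. The log2 fold change of MICA was 0.58 (95% CI 0.34 to 0.81, adjusted p = 0.00383), from 895 to 1122 reads per control sample and 1171 to 1688 per knockdown sample. MICB had RPKM values of 12.4, 15.4 and 12.7 in shRNA-NC and of 18.7, 20.8 and 17.6 in shRNA-UBC9. Here too the groups were apart, and replicate 2 was the highest sample in each group for both genes. The log2 fold change of MICB was 0.49 (95% CI 0.24 to 0.75, adjusted p = 0.0102). Without the 2 samples in which CD3D and CD3E were at 0, MICB kept a log2 fold change of 0.49 but no longer passed (adjusted p = 0.0509), and MICA still did, at 0.63 (adjusted p = 0.0275). In bulk RNA, fewer cells with a transcript and less of it per cell cannot be told apart. The ratio of MICA to MICB RPKM was 0.921 ± 0.0798 in shRNA-NC and 0.975 ± 0.0116 in shRNA-UBC9, with overlapping ranges.

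The nearest classical class I genes had higher values as well. HLA-B, the neighbour of MICA, had 57.1, 174.1 and 61.9 RPKM in shRNA-NC and 404.0, 411.5 and 306.6 in shRNA-UBC9. Its control value in replicate 2 stood far above those of the other controls, and MICA, MICB, ULBP2 and ULBP3 were also highest among the controls in that sample. Without shRNA-NC replicate 2 the log2 fold changes were 0.64 for MICA, 0.59 for MICB, 1.12 for ULBP2 and -0.76 for ULBP3, each still passing in limma (adjusted p between 0.000773 and 0.0173). The part of that sample in the ligand values was not tested beyond leaving it out. HCP5, a non-coding RNA gene between MICA and MICB, was also a DEG (log2 fold change 2.09, adjusted p = 0.00267). At the ULBP/RAET1 cluster, the flanking genes LRP11 and PCMT1 and the pseudogene RAET1K did not pass.

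Both MIC promoters hold a match to a heat shock element, and the stretch around it is shown because the pair rose together. The stretches are from RefSeq on GRCh38.p14, plus strand, at chr6:31403449-31403478 for MICA and chr6:31497995-31498024 for MICB, with the match in capitals.
MICA: ccagcccactgGAATTTTCtcttccaagcg
MICB: ccaggccgctaGAATTTTCtcttctgaacg
The 8 bases of the match (searched as GAANNTTC or TTCNNGAA) are the same in both, and 24 of these 30 bases are. The match begins 135 bases before the RefSeq start of MICA and 139 before that of MICB. The gene bounds given earlier are from GENCODE and begin further upstream, at 31399784 for MICA and 31494881 for MICB. Both stretches thus lie inside those bounds. Such a match was found in the 250 bases before the start in 11.6% of 34788 RefSeq promoters, and RAET1E was the only other ligand with one. The 250-base windows of MICA and MICB were 85.4% identical over 246 aligned bases. Each also held a GC box (GGGCGG on either strand, in 42.6% of promoters) and CCAAT boxes (CCAAT on either strand, in 32% of promoters), 2 in MICA and 1 in MICB. These are matches of letters and not shown to be bound. HSF1, which encodes the factor that binds heat shock elements, had a log2 fold change of 0.20 and did not pass (adjusted p = 0.156 in limma). This is a transcript level, and the activity of the factor was not tested.

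ULBP2 had the largest rise of the tested ligands. ULBP2 is attached to the membrane by a lipid anchor. Its RPKM was 8.15, 9.20 and 8.59 in shRNA-NC and 19.1, 19.4 and 16.5 in shRNA-UBC9. Every knockdown sample was well above every control, and the control values lay close together. The log2 fold change was 1.07 (SE 0.0975, 95% CI 0.85 to 1.30, adjusted p = 0.000193), a fold of 2.11, and 4.84% of tested genes had a larger log2 fold change. Read numbers rose from 328, 430 and 392 to 929, 924 and 628. The interval reaches below the fold cutoff of 1, although the estimate stayed above it in each of the 20 alternatives run, between 1.002 and 1.15. Within the comparison of shRNA-NC replicate 1 with shRNA-UBC9 replicate 3, the pair with CD3D and CD3E at 0, the difference was 1.01, and in the other 4 samples it was 1.11.

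ULBP3 moved the other way. ULBP3 is another lipid-anchored ligand and, unlike ULBP1 and ULBP2, is not held back in the cell by the UL16 protein of cytomegalovirus. It had 5.02, 5.14 and 4.28 RPKM in shRNA-NC and 2.27, 2.59 and 3.34 in shRNA-UBC9. The highest knockdown sample was below the lowest control. The log2 fold change was -0.81 (SE 0.149, 95% CI -1.15 to -0.47, adjusted p = 0.00429), and the mean fell by 43.2%. Read numbers were 143 to 176 per control sample and 81 to 93 per knockdown sample. In shRNA-NC replicate 1 and shRNA-UBC9 replicate 3, with CD3D and CD3E at 0, the difference of ULBP3 was -0.58, and in the other 4 samples it was -0.92 (adjusted p = 0.0126). Without the 2 samples numbered 2, ULBP3 stood at -0.73 and just passed (adjusted p = 0.0484).

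The RPKM of ULBP2 was 1.62, 1.79 and 2.01 times that of ULBP3 in the shRNA-NC samples and 8.40, 7.52 and 4.95 times in the shRNA-UBC9 samples. The ratio was thus higher in all knockdown samples. shRNA-UBC9 replicate 3 had the lowest ratio of its group, the lowest MICA, MICB and ULBP2 and the highest ULBP3. With 3 samples in the group this is a description only.

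The promoters of ULBP2 and ULBP3 are shown because these genes of the same cluster changed in opposite directions. Each is the 250 bases before the RefSeq start on GRCh38.p14, written in the direction of transcription, at chr6:149941764-149942013 on the plus strand for ULBP2 and chr6:150069122-150069371 on the minus strand for ULBP3. Capitals mark matches on either strand to the GC box and the CCAAT box, searched as above, or to the core of the cyclic AMP response element, searched as TGACG, and no matches overlapped.
ULBP2: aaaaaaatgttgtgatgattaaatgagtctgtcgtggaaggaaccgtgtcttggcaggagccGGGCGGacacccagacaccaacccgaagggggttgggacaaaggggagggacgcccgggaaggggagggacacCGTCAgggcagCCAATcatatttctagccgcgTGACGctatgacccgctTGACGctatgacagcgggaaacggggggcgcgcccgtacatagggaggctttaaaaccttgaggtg
ULBP3: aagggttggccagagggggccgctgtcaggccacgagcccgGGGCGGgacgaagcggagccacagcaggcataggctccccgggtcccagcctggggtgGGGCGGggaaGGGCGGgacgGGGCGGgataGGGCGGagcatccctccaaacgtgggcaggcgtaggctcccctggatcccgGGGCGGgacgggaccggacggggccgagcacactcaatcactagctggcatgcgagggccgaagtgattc
ULBP2 held 3 cores of the cyclic AMP response element, with 1 GC box and 1 CCAAT box. ULBP1 also held 3 of these cores. At least 1 such core was found in 21.2% of promoters. The shares given above for other motifs likewise count promoters with at least 1 match. ULBP3 held 6 GC boxes and neither other motif, and its window was 72% G and C against 58% for ULBP2.

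ULBP1 is a lipid-anchored ligand that is switched on by the integrated stress response through ATF4. Its RPKM was 0.789, 0.276 and 0.640 in shRNA-NC and 0.503, 0.578 and 0.541 in shRNA-UBC9. The knockdown samples lay inside the range of the controls, among which replicate 2 was the lowest. The log2 fold change of ULBP1 was 0.03 (95% CI -0.71 to 0.77, adjusted p = 0.954), and the interval leaves room for a change of more than 1.5 times in either direction. Read numbers were 30 to 74 per control sample and 48 to 64 per knockdown sample. The difference of ULBP1 was -0.47 in the pair of samples with CD3D and CD3E at 0 and 0.28 in the other 4. ULBP1 was -0.34 without shRNA-NC replicate 2, -0.17 after quantile normalization and -0.01 with median scaling, so its direction was not set.

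RAET1E, RAET1G and RAET1L were below the expression filter and enter no count above. RAET1E encodes ULBP4, which has a transmembrane segment, and RAET1L encodes ULBP6, a lipid-anchored close relative of ULBP2. RAET1E had 1, 0 and 0 reads in shRNA-NC and 4, 4 and 2 in shRNA-UBC9. RAET1L had 0, 0 and 1 reads in shRNA-NC and 9, 13 and 2 in shRNA-UBC9. Both were higher in every knockdown sample than in any control, at levels of at most 0.0378 RPKM for RAET1E and 0.274 RPKM for RAET1L. Among the tested genes, which these are not, 51.1% had groups that did not overlap, in either direction. For RAET1E the gap was that of 2 reads in shRNA-UBC9 replicate 3 against 1 in shRNA-NC replicate 1. Per total reads, the ratio of the groups was 9.88 for RAET1E (exact 95% CI 1.41 to 429) and 23.7 for RAET1L (3.87 to 975), and these intervals cover counting error only. RAET1G had 2, 1 and 7 reads in shRNA-NC and 8, 5 and 4 in shRNA-UBC9, which overlapped, with a ratio of 1.68 (0.726 to 4.11).

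When limma voom was run on the read numbers with a minimum of 10 reads over all samples, an alternative added after seeing the data, the log2 fold change was 2.36 for RAET1E (adjusted p = 0.0499), 3.30 for RAET1L (adjusted p = 0.0263) and 0.97 for RAET1G (adjusted p = 0.336). In the fit on log2(RPKM + 0.1) with no filter it was 0.36 for RAET1E (adjusted p = 0.0483), 1.25 for RAET1L (adjusted p = 0.0430) and 0.40 for RAET1G (adjusted p = 0.403). RAET1E and RAET1L reached the minimum of 10 reads only through the knockdown samples, with 10 and 24 reads there against 1 each in the controls. Their voom values are thus no test of a rise, and all of these values rest on few reads. Near-identical copies also bear on them, because how reads that match several places were treated is not stated. Of all 75-base stretches of the RAET1L transcript, 19.6% also occur in ULBP2 or RAET1G. Of those of ULBP2, 20.8% occur in RAET1L or RAET1G. A single transcript was searched for each ligand. Those of MICA (1370 bases) and MICB (2416 bases) held no 75-base stretch of another gene. At 150 bases the shared part was 4.26% for RAET1L and 4.3% for ULBP2. ULBP2 had between 328 and 929 reads per sample, and the part of such shared reads in the numbers of RAET1L was not tested. RAET1G shares 138 exon bases with the opposite-strand gene RAET1E-AS1, and RAET1E shares 1050 exon bases with ENSG00000285991 on its own strand. MICA shares 94 exon bases with a Y_RNA gene on the opposite strand and 62 with ENSG00000288587 on its own strand. MICB shares 55 with the opposite-strand gene MICB-DT. Whether reads were counted by strand is not stated.

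**Figure D2:**
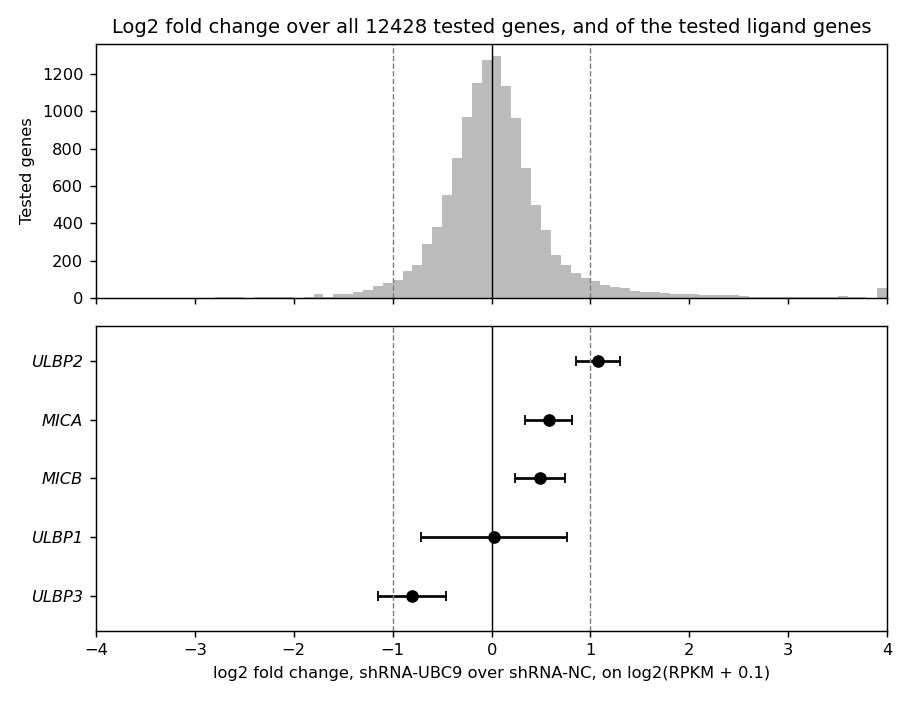
Top, the log2 fold change (shRNA-UBC9 over shRNA-NC, on log2(RPKM + 0.1)) of all 12428 tested genes, with the number of genes in each bin on the vertical axis and values past the ends counted in the end bins. Bottom, the same quantity for the 5 tested ligands with 95% confidence intervals, dashed lines marking the fold cutoff of 1 in each direction. ULBP2 at 1.07 lies past the line, MICA at 0.58 and MICB at 0.49 lie between 0 and the line, the interval of ULBP1 spans 0, and ULBP3 lies at -0.81.

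Summed over the 8 genes, ligand RPKM was 39.0, 43.6 and 37.5 in shRNA-NC and 59.0, 63.9 and 55.5 in shRNA-UBC9. The groups did not overlap, and the means were 40.0 ± 3.19 and 59.5 ± 4.17 (SD, n = 3), a ratio of 1.49. The MIC genes made up 64.7% ± 1.53 of the sum in shRNA-NC and 63.1% ± 0.823 in shRNA-UBC9, with overlapping ranges. The share of ULBP2 was 20.9% to 22.9% in shRNA-NC and 29.7% to 32.3% in shRNA-UBC9. That of ULBP3 was 11.4% to 12.9% and then 3.85% to 6.01%. The ranges of the groups did not overlap for either of these shares. This is a sum of transcript levels and says nothing of protein at the surface.

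**Figure D3:**
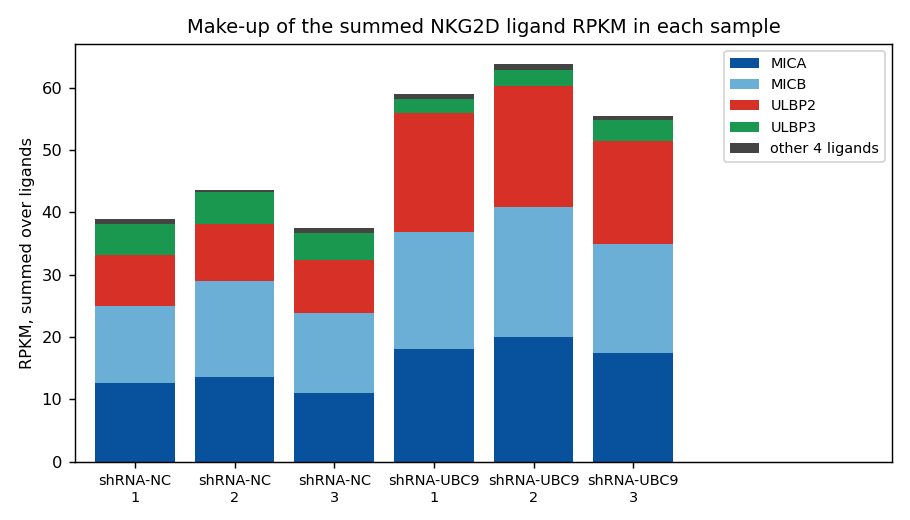
Bars show the RPKM summed over the 8 ligand genes (vertical axis, from 0) in each of the 6 samples, with colours for MICA, MICB, ULBP2, ULBP3 and the other 4 ligands together. The 3 shRNA-NC bars reach 37.5 to 43.6 and the 3 shRNA-UBC9 bars 55.5 to 63.9, with a larger ULBP2 segment and a smaller ULBP3 segment in the latter.

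The genes most alike to a ligand across the 6 samples were named for ULBP2, which had the largest absolute log2 fold change, and for MICB, which had the highest mean. As a description, on log2(RPKM + 0.1), ULBP2 was most like SECISBP2 (r = 0.9991), a factor of selenoprotein synthesis, LINC01828 (r = 0.9990), a long non-coding RNA, and TFPI2 (r = 0.9990), an inhibitor of serine proteases. TFPI2 had between 39.2 and 51.2 RPKM in shRNA-NC and between 473.3 and 779.3 in shRNA-UBC9, a far wider gap than that of ULBP2. MICB was most like HLA-F (r = 0.9979), a non-classical class I gene, NIPA2 (r = 0.9945), a magnesium transporter, and CMAS (r = 0.9941), an enzyme of sialic acid activation. HLA-F shared with MICB its highest values in replicate 2 of each group, 7.64 RPKM in shRNA-NC and 20.96 in shRNA-UBC9. All 6 samples enter each r and the groups differ, so genes that changed between the groups score high.

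The genes that make, bind or remove NKG2D ligands were read from lists. KLRK1, which encodes NKG2D, and the adaptors HCST and TYROBP were all below the filter, at most 0.289 RPKM, in these tumour cells. Of 6 genes that act in ligand shedding, 5 were tested, of which 1 rose and 2 fell, so 3 of 5 passed where 36.8% of all tested genes did. MMP14, a membrane-bound metalloproteinase that can cleave MICA, had 55.1, 37.6 and 52.9 RPKM in shRNA-NC and 130.4, 112.2 and 159.1 in shRNA-UBC9. It was higher in every knockdown sample and was a DEG (log2 fold change 1.47, adjusted p = 0.000597). The sheddases ADAM9 and ADAM17 fell by 0.68 and 0.42 on the log2 scale (adjusted p = 0.00138 and 0.0423 in limma). ADAM10, which cleaves several ligands, had a log2 fold change of 0.02 and PDIA6, which loosens MICA for cleavage, of -0.13, and neither passed. The median log2 fold change of the 5 was -0.13, beside 0.005 for all genes.

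Of 8 factors that act on transcription or splicing of ligand genes, 2 rose, 1 fell and 5 did not pass, with a median log2 fold change of 0.11. The 3 of 8 that passed are close to the 36.8% of all tested genes. The NF-kappaB subunits NFKB1 and RELA rose by 0.60 and 0.44 (adjusted p = 0.00569 and 0.00962). SP1, which binds GC boxes, fell by 0.28 (adjusted p = 0.0423). ATF4 and RBM4, both known to act on ULBP1, had log2 fold changes of -0.12 and 0.07 and did not pass. E2F1, MYC and HSF1 did not pass either. These are transcript levels, and the activity of the factors was not tested. Among the DNA damage kinases that can induce ligands, CHEK1 was a DEG with lower values (log2 fold change -1.01, adjusted p = 0.000323 in limma). ATM, ATR and CHEK2 did not pass. Thus 1 of 4 passed, where 36.8% of all tested genes did, and 1 of 4 was a DEG, where 7.89% were.

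Ligands of other NK cell receptors were compared side by side with those of NKG2D. Of 10 ligands of activating receptors, 8 were tested, 6 rose and none fell, where 18.8% of all tested genes rose and 18.0% fell, and the median log2 fold change was 0.56 beside 0.005 for all genes. ICAM1, the adhesion ligand of LFA-1, went from a mean of 6.38 ± 2.71 RPKM to 35.4 ± 4.09 (log2 fold change 2.56, adjusted p = 0.000617). NCR3LG1, the NKp30 ligand B7-H6, went from 1.18 ± 0.218 to 3.15 ± 0.446 (log2 fold change 1.35, adjusted p = 0.000674), and both were DEGs. PVR and NECTIN2, ligands of DNAM-1, rose by 0.87 and 0.41, CLEC2B by 0.71 and CD70 by 0.42, with adjusted p between 0.00058 and 0.0301 in limma. BAG6 and CD58 did not pass.

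The listed ligands of inhibitory NK cell receptors were mostly higher in the knockdown. Of 6 listed, 5 were tested, 4 rose, where 18.8% of all tested genes did, and 3 were DEGs with higher values, where 5.20% were. The median log2 fold change of the 5 was 1.36. HLA-B, HLA-F and HLA-C were DEGs at log2 fold changes of 2.12, 1.75 and 1.36, and HLA-E rose by 0.53, with adjusted p between 0.00164 for HLA-C and 0.0237 for HLA-E. CLEC2D did not pass. HLA-E, the ligand of the inhibitory receptor NKG2A, went from 99.0 ± 10.04 RPKM to 144.0 ± 29.6. In summed RPKM, the 6 inhibitory ligands came to between 256.3 and 463.8 in shRNA-NC and between 723.5 and 955.9 in shRNA-UBC9, and the 8 NKG2D ligands to between 37.5 and 43.6 and between 55.5 and 63.9. Reads of the HLA genes can be shared among them, which makes the single HLA values uncertain. No test compared the lists with each other.

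**Figure D4:**
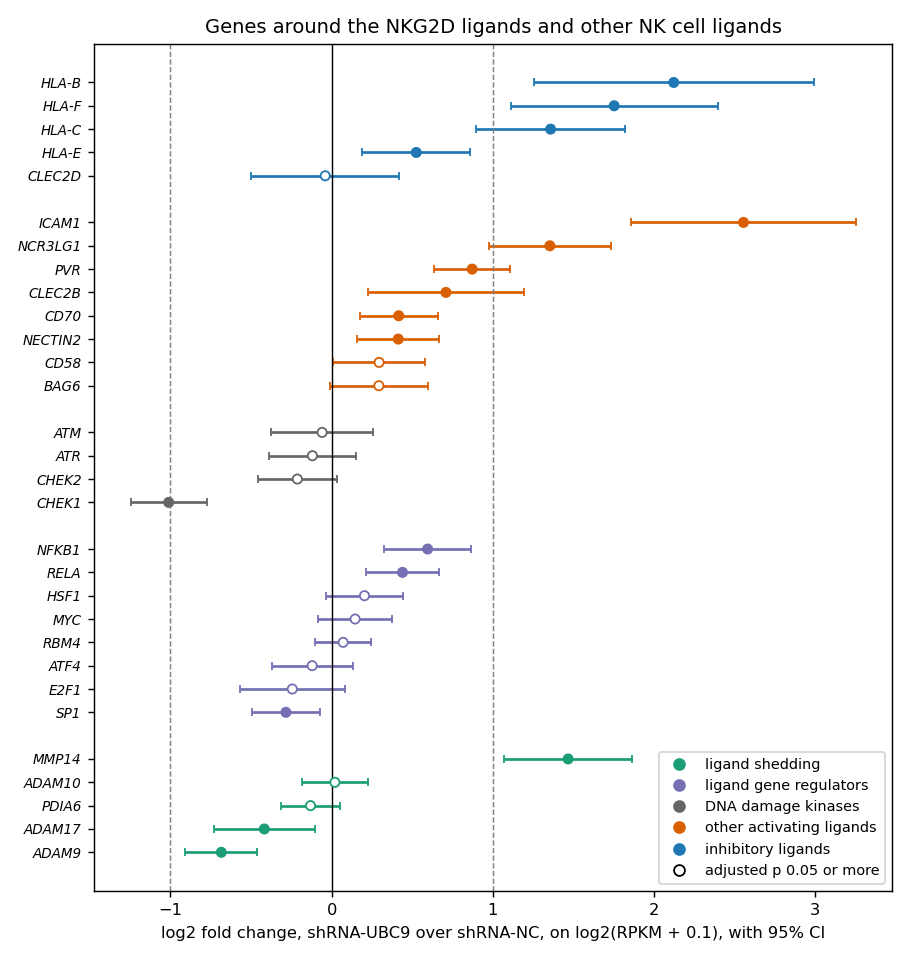
Log2 fold change (horizontal axis, shRNA-UBC9 over shRNA-NC, on log2(RPKM + 0.1)) with 95% confidence intervals for the tested genes of 5 lists, from top to bottom ligands of inhibitory receptors, other ligands of activating receptors, DNA damage kinases, ligand gene regulators and shedding genes. Filled points had an adjusted p below 0.05 and open points did not, and dashed lines mark the fold cutoff. In the top lists 10 of 13 points are filled and all of those lie above 0. Of all tested genes, 36.8% passed and 18.8% passed with higher values. The shedding genes run from -0.68 for ADAM9 to 1.47 for MMP14.

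**Figure D5:**
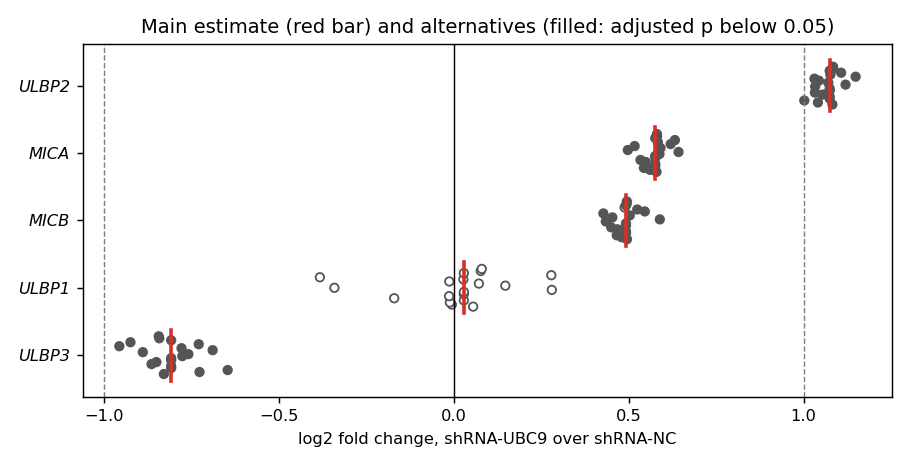
Log2 fold change (horizontal axis, shRNA-UBC9 over shRNA-NC) of the 5 tested ligands in the fit described above (red bar) and in each alternative (circles, filled where the adjusted p was below 0.05), with dashed lines at the fold cutoff. ULBP2 stays at or past 1.002, MICA and MICB stay between 0.43 and 0.64 with 1 open circle for MICB, ULBP3 stays between -0.96 and -0.65, and the open circles of ULBP1 lie on both sides of 0.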

How the data were processed

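Groups and replicate numbers came from the sample labels. The authors made TruSeq poly(A) libraries, sequenced them on an Illumina HiSeq, trimmed adaptors, used CLC Biomedical Genomics Workbench with default settings to map to GRCh38, and deposited RPKM values for each sample. The annotation release, strand setting and treatment of reads with several matches are not given in the sources used here. RPKM corrects for gene length and total reads, not for RNA composition.

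The members and gene lists were chosen with earlier results of these data known. Named genes are the 8 ligands, genes of those lists, and the 3 genes most correlated with each of 2 ligands. Values were fitted with limma 3.58.1 (R 4.3.3; lmFit, eBayes with trend) and adjusted by Benjamini-Hochberg over 12428 genes, and all adjusted p-values are from limma. Exact permutation of 3 against 3 samples cannot go below 0.1. No gene above 0 had the same value in any pair of samples. Code was tested on simulated data. Gene positions were from GENCODE 44, and promoters from RefSeq GRCh38.p14, where all 8 members matched. Python 3.11.15, numpy 2.4.6, pandas 2.3.3, scipy 1.17.1 and matplotlib 3.10.9 were used. Alternatives were other pseudocounts, filters, scalings, call thresholds, a replicate block, left-out samples and limma voom on recovered reads. The level of the targeted gene and some list genes are not reported here.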

Additional observations from a re-analysis of the deposited data

How the results depend on the processing

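MICA, ULBP2 and ULBP3 kept their direction and an adjusted p below 0.05 in limma in all 20 alternatives run for each, with log2 fold changes of 0.50 to 0.64, 1.002 to 1.15 and -0.96 to -0.65. MICB did so in 19, the exception being the 4 samples with CD3D and CD3E above 0 (adjusted p = 0.0509). ULBP1, which a filter of 1 RPKM removed, changed sign in 7 of 19 alternatives without passing in any: -0.0056 and -0.011 with pseudocounts of 0.5 and 1, -0.17 with quantile normalization, -0.013 with median scaling, and -0.38 without both samples numbered 2. With 1 sample left out ULBP1 ranged from -0.34 (without shRNA-NC replicate 2) to 0.28 (without shRNA-NC replicate 1), and it was -0.013 without shRNA-UBC9 replicate 2.

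The 981 DEGs across all genes became 552 with a pseudocount of 1, 1584 with voom on genes with at least 10 reads and 4576 with no fold cutoff, and 926 to 1065 with 1 sample left out. The 1 ligand DEG became 2 with no expression filter (RAET1L added), 3 with that voom fit (RAET1E and RAET1L added) and 4 with no fold cutoff, and stayed 1 with any sample left out. RAET1E and RAET1L entered that voom fit only through their knockdown reads, so their addition is no support for a rise. The voom fit tested 17409 genes and the fit with no filter 22896, against 12428. The cause of the other shifts was not tested. Deviations of samples with the same number correlated at -0.37, 0.07 and -0.17, which gave no sign that the numbers pair the samples. With 3 samples a group, each centred on its mean, this check cannot exclude pairing. Between samples of unlike number the correlations ran from -0.32 to 0.53. The highest was that of shRNA-NC replicate 1 with shRNA-UBC9 replicate 3, the samples with CD3D and CD3E at 0. A structure shared across the groups was not tested further. The replicate block gave 974 DEGs and 1 ligand DEG. With 3 samples a group and under 15 reads per sample, RAET1E, RAET1G and RAET1L set only wide limits.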
